A study of Mus musculus with 8 samples.

Results

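The genes described here are 35 transcripts of the endothelial cells that line the liver's blood vessels, most of them of the sinusoidal endothelial cell. They were listed by name as genes known from this cell type, with earlier results of these data in view. Each was matched through its Ensembl identifier to 1 row of a table of 45706 identifiers, and all 35 had enough reads to be tested among 15491 genes. RNA was read from whole livers of male mice, 4 labelled *Srsf10-kd* and 4 labelled *Ctrl*. The strain is written C56B6/J in the labels and C57BL/6J in the study's methods. All mice had been injected in the tail vein at 6 weeks of age with an adeno-associated virus (AAV, serotype 2/8). In it the CBA promoter, which is not restricted to 1 cell type, drove GFP and a mirE/shRNA, a short hairpin in a microRNA backbone. The hairpin was directed against *Srsf10*, which encodes a splicing factor, in *Srsf10-kd* mice and was a control hairpin in *Ctrl* mice. From 4 weeks after injection both groups ate a diet with 60% of calories from fat for 12 weeks, so no group on a normal diet enters the comparison. Livers were not sorted, so endothelial transcripts came from a minority of the cells behind each library. A lower level can mean fewer endothelial cells, less RNA in each, or a change in other liver cells where these express the gene too. Such readings cannot be told apart in these samples.

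Sinusoidal endothelial cells form a fenestrated, leaky wall between blood and hepatocytes and clear waste molecules from blood through scavenger receptors. They share junction proteins, growth factor receptors and transcription factors with other endothelium. With central vein endothelium they also send Wnt, R-spondin and bone morphogenetic protein (BMP) signals, which set the zonation of hepatocytes and their output of the iron hormone hepcidin. When liver endothelium loses its specialised state, sinusoidal receptors are typically reduced and markers of ordinary continuous capillaries gained.

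Each library held between 50456404 and 59697241 counted reads, and the 35 genes took 0.0711% to 0.0833% of them. Levels are given in CPM, counts brought to 1 library size by TMM scaling, and fold changes as log2 of *Srsf10-kd* over *Ctrl* from edgeR. The targeted gene did not have a reduced level under the *Srsf10-kd* label. *Srsf10* was at 34.3, 34.0, 41.0 and 36.5 CPM in *Srsf10-kd* livers 1 to 4 and at 31.6, 33.7, 35.3 and 30.9 CPM in *Ctrl* livers 1 to 4 (log2 fold change 0.15, standard error, SE, 0.10, adjusted p = 0.378 by edgeR's quasi-likelihood test). The study itself reports less SRSF10 protein by western blot, and less *Srsf10* RNA by qPCR, in livers of mice given this hairpin. In the counts used here no decrease was seen, and the groups are therefore named by their labels alone. Over all genes tested, 11 had an adjusted p under 0.05, all lower in *Srsf10-kd*, and among them was *Ppara* (log2 fold change -1.24, adjusted p = 0.0166 by edgeR). The number of calls moved with single livers, and 0 genes passed when *Srsf10-kd* 1, 2 or 4 or *Ctrl* 2 was left out, although 2154 to 3656 genes then had an unadjusted p under 0.05, whereas 544 passed without *Ctrl* 3. Without *Ctrl* 1, *Ctrl* 4 or *Srsf10-kd* 3 the counts were 4, 5 and 64. The log2 fold change of *Ppara* stayed between -1.31 and -1.15 with each liver left out in turn.

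None of the 35 endothelial genes passed an adjusted p of 0.05 by edgeR, against 0.0710% of all genes tested, and the smallest adjusted p was 0.119. Their log2 fold changes ran from -0.57 for *Stab2* to 0.57 for *Lyve1*, with 17 above 0 and 18 below, where 51.3% of all genes tested were above 0. The median was -0.02, beside 0.01 over all genes tested. At an unadjusted p under 0.05, 13 of the 35 (37.1%) differed, against 21.8% of all genes tested. Of these, 8 were higher in *Srsf10-kd* (11.2% of all genes were) and 5 were lower (10.6% of all genes). The values of the 4 *Srsf10-kd* livers did not overlap those of the 4 *Ctrl* livers for 6 genes (17.1%), a share close to the 14.3% found over all genes. The *Srsf10-kd* livers were the higher ones for 4 of them (6.73% of all genes) and the lower ones for 2 (7.53% of all genes). The summed level of the 35 genes was 708 to 809 CPM in *Srsf10-kd* and 756 to 842 CPM in *Ctrl* and so overlapped.

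**Figure D1:**
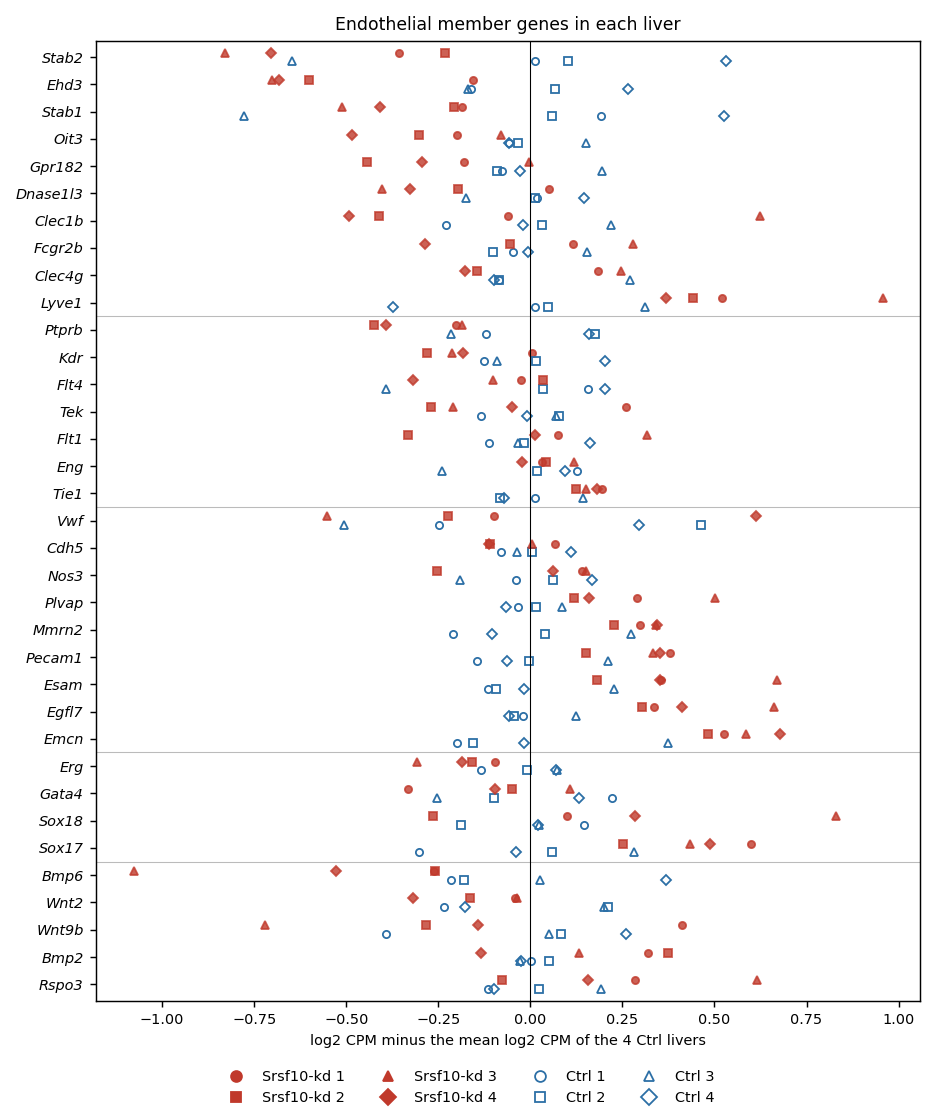
Level of each of the 35 genes in each liver, as log2 CPM minus the mean log2 CPM of the 4 *Ctrl* livers, grouped by role (from the top, sinusoid receptors, growth factor receptors, pan-endothelial proteins, transcription factors, secreted signals). Filled red symbols are *Srsf10-kd* livers and open blue symbols *Ctrl* livers, and the red and blue symbols separate completely for 6 genes, *Oit3*, *Lyve1*, *Plvap*, *Egfl7*, *Emcn* and *Bmp6*.

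The number of genes called depended on the tool and on single livers. DESeq2, the tool of the study, called 3 of the 35, *Ehd3*, *Egfl7* and *Emcn*, while it called 5.21% of all genes tested. Limma-voom with sample quality weights called 9, *Stab2*, *Lyve1*, *Ptprb*, *Pecam1*, *Egfl7*, *Esam*, *Emcn*, *Mmrn2* and *Sox17*, while it called 11.7% of all genes. *Ctrl* 3 was the liver that decided most. Without it edgeR called *Emcn* alone (log2 fold change 0.69, adjusted p = 0.0262), at 3.47% of all genes called. With *Ctrl* 3 and *Srsf10-kd* 3 both left out, it called 8 of the 35, 6 higher and 2 lower, at 8.62% of all genes called.

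Per kilobase of transcript, averaged over the 8 livers, the most abundant of the 35 was *Clec4g* at 35.3 CPM per kb. It was followed by *Plvap* at 23.2, *Fcgr2b* at 14.4, *Eng* at 14.1 and *Ehd3* at 13.9 CPM per kb. The least abundant were *Wnt9b* at 0.185, *Vwf* at 0.766, *Bmp6* at 1.05 and *Nos3* at 1.17 CPM per kb. Of these first 5, *Clec4g*, *Fcgr2b* and *Ehd3* belong to the sinusoidal genes, while *Stab1*, *Stab2* and *Clec1b* ranked 17th, 18th and 26th, and the large-vessel protein von Willebrand factor (*Vwf*) stood near the foot of the order. The order depends on the division by length, as *Stab1*, *Stab2* and *Vwf* have transcripts of 7999, 8228 and 8834 bases. Without it their means were 34.0, 33.9 and 6.77 CPM, beside 50.9 CPM for *Clec4g* with 1442 bases. The genes that define the sinusoidal cell, *Stab2*, *Clec4g*, *Oit3*, *Dnase1l3* and *Fcgr2b*, were read in every liver. The raw counts of the 35 genes ran from 27 for *Wnt9b* to 4752 for *Ptprb*.

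The receptors of the sinusoidal wall did not move as 1 group. Of 10 such genes 7 had a log2 fold change below 0 and 3 above, with a median of -0.22. An unadjusted p under 0.05 was found for 4 (40%, against 21.8% of all genes tested), 3 lower and 1 higher. Their summed level was 267 to 339 CPM in *Srsf10-kd* and 331 to 384 CPM in *Ctrl*, with *Srsf10-kd* 1 reaching into the *Ctrl* range.

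In GRCm38, by GENCODE M21, *Stab2* (ENSMUSG00000035459) lies on chromosome 10 from 86841198 to 87008025 and *Lyve1* (ENSMUSG00000030787) on chromosome 7 from 110850607 to 110863239, both on the minus strand. *Stab2*, a giant scavenger receptor that removes hyaluronan and other macromolecules from blood, was at 30.3, 33.0, 21.9 and 23.8 CPM in *Srsf10-kd* livers 1 to 4. In *Ctrl* livers 1 to 4 it was at 39.1, 41.7, 24.8 and 56.2 CPM. *Ctrl* 1, 2 and 4 lay above every *Srsf10-kd* liver and *Ctrl* 3 lay among the *Srsf10-kd* values, so that the groups overlapped (log2 fold change -0.57, SE 0.23, unadjusted p = 0.0327, adjusted p = 0.201 by edgeR). Its relative *Stab1*, at 25.8 to 32.3 CPM in *Srsf10-kd* and 21.5 to 53.0 CPM in *Ctrl*, again had *Ctrl* 1, 2 and 4 above every *Srsf10-kd* liver, and *Ctrl* 3 was the lowest of all 8 livers (log2 fold change -0.40). Without *Ctrl* 3 the log2 fold changes were -0.75 for *Stab2* and -0.60 for *Stab1*, and edgeR still called neither. Without *Ctrl* 4, the highest liver for both, they were -0.37 and -0.21.

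*Ehd3*, which serves membrane traffic from endosomes, was at 53.6, 39.4, 36.8 and 37.3 CPM in *Srsf10-kd* livers 1 to 4 and at 53.4, 62.6, 53.1 and 71.9 CPM in *Ctrl* livers 1 to 4. *Srsf10-kd* 1 stood level with the lower *Ctrl* livers, and the other 3 *Srsf10-kd* livers were below all *Ctrl* livers. The log2 fold change was -0.53 (SE 0.15, adjusted p = 0.133 by edgeR and 0.0446 by DESeq2). *Oit3*, a secreted zona pellucida domain protein used as a sinusoidal marker, was at 20.2, 18.8, 21.9 and 16.5 CPM in *Srsf10-kd* and 22.2, 22.6, 25.7 and 22.2 CPM in *Ctrl*. All 4 *Srsf10-kd* livers were below all 4 *Ctrl* livers, by a narrow margin for *Srsf10-kd* 3 (log2 fold change -0.26, SE 0.11, adjusted p = 0.216 by edgeR). The exact two-sided permutation test gave p = 0.0286, the smallest that 4 livers against 4 allow, as it does for each of the 6 genes without overlap.

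*Lyve1*, a hyaluronan receptor of sinusoidal and lymphatic endothelium, ran the other way. It was at 25.3, 23.9, 34.2 and 22.8 CPM in *Srsf10-kd* livers 1 to 4 and at 17.8, 18.2, 21.9 and 13.6 CPM in *Ctrl* livers 1 to 4. The lowest *Srsf10-kd* liver was above the highest *Ctrl* liver, with means of 26.5 ± 5.22 and 17.9 ± 3.39 CPM (SD, n = 4 livers each). The log2 fold change was 0.57 (SE 0.17, unadjusted p = 0.00783, adjusted p = 0.139 by edgeR). *Lyve1* and *Stab2* thus lay at opposite ends of the range of the 35 genes, although both proteins bind hyaluronan.

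*Clec4g*, the lectin LSECtin of the sinusoidal surface, showed how close the groups could be. Its levels were 56.9, 45.3, 59.4 and 44.2 CPM in *Srsf10-kd* livers 1 to 4 and 47.2, 47.2, 60.3 and 46.7 CPM in *Ctrl* livers 1 to 4. The groups overlapped fully (log2 fold change 0.03, SE 0.14), and *Ctrl* 3 stood apart at the top of its group. The inhibitory antibody receptor *Fcgr2b* (log2 fold change 0.02) and the podoplanin receptor *Clec1b* (-0.02) were as close. *Gpr182*, an atypical chemokine receptor, and *Dnase1l3*, a secreted DNase, had log2 fold changes of -0.23 and -0.21, with overlapping groups.

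**Figure D2:**
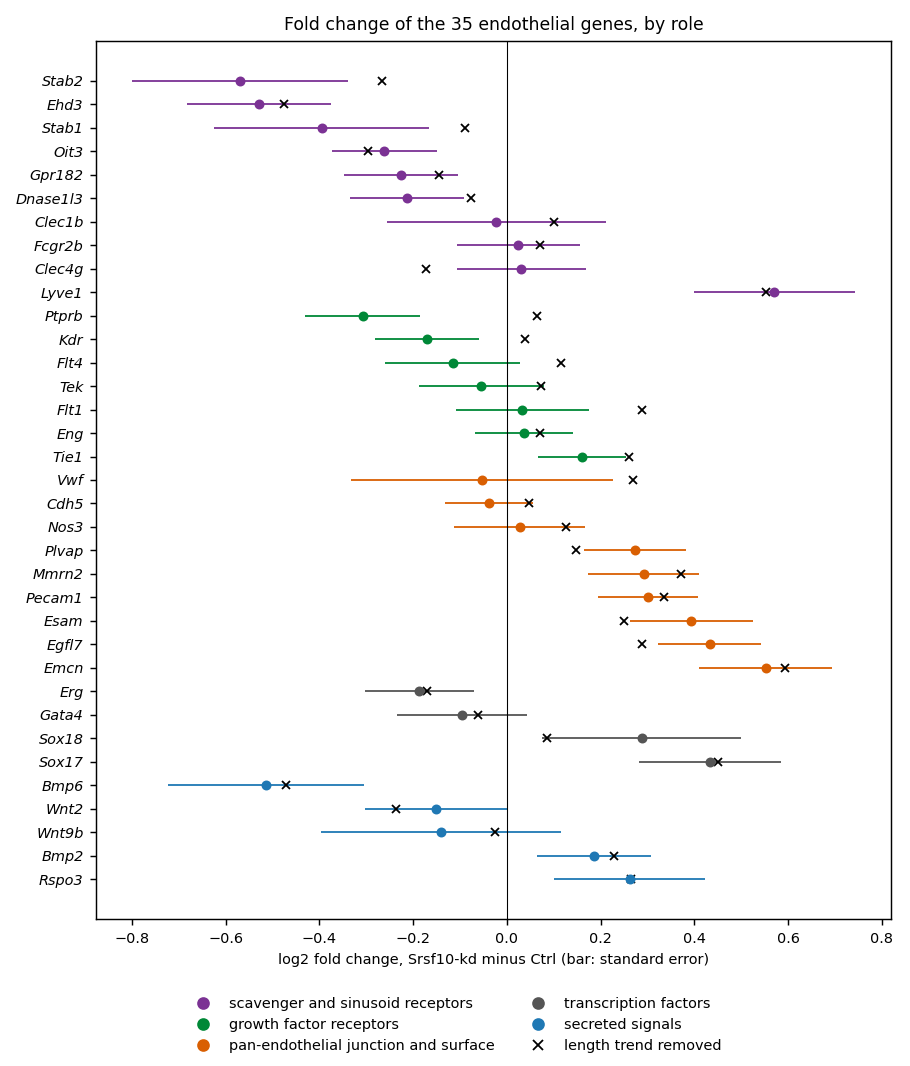
Log2 fold change of *Srsf10-kd* over *Ctrl* for the 35 genes, with bars of 1 standard error derived from the edgeR test and colours by role, and a cross for the value corrected for transcript length in each library. Sinusoidal receptors lie mostly left of 0 and pan-endothelial genes mostly right of it, and the crosses of *Ptprb*, *Kdr*, *Flt4*, *Tek*, *Cdh5*, *Vwf*, *Clec4g* and *Clec1b* lie on the other side of 0 from their points.

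Receptors for vascular growth factors differed little. Of 7 genes 4 had a log2 fold change below 0 and 3 above, the median was -0.05, and the summed level was 195 to 220 CPM in *Srsf10-kd* and 200 to 244 CPM in *Ctrl*. *Kdr*, the main receptor for vascular endothelial growth factor (VEGF), was at 44.8, 36.8, 38.6 and 39.3 CPM in *Srsf10-kd* livers 1 to 4 and at 40.9, 45.2, 41.9 and 51.4 CPM in *Ctrl* livers 1 to 4. The groups overlapped (log2 fold change -0.17, SE 0.11, adjusted p = 0.362 by edgeR). *Ptprb*, the phosphatase that restrains the angiopoietin receptor and endothelial cadherin, was at 59.7, 51.2, 60.4 and 52.4 CPM in *Srsf10-kd* and 63.3, 77.7, 59.2 and 76.8 CPM in *Ctrl*. Only *Ctrl* 3 lay within the *Srsf10-kd* values (log2 fold change -0.31, SE 0.12, unadjusted p = 0.0308, adjusted p = 0.198 by edgeR). *Ptprb* has the longest transcript of the 35, and with the length trend removed its log2 fold change was 0.06. The other receptors were *Flt1* (log2 fold change 0.03), which binds VEGF-A and placental growth factor, *Flt4* (-0.11), which binds VEGF-C and VEGF-D, and the angiopoietin receptor *Tek* (-0.05). Its partner *Tie1* was at 0.16 and the BMP co-receptor *Eng* at 0.04, and the groups overlapped for all 5.

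The group named pan-endothelial here held surface and junction proteins, and also secreted or matrix proteins and an enzyme. Its genes were mostly higher. Of 9 genes 7 had a log2 fold change above 0, and the median was 0.29. At an unadjusted p under 0.05, 6 were higher and 0 lower (66.7%, against 21.8% of all genes tested). Their summed level was 169 to 204 CPM in *Srsf10-kd* and 145 to 168 CPM in *Ctrl*, and so did not overlap, with *Srsf10-kd* 2 and *Ctrl* 3 nearest to each other.

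*Emcn* (ENSMUSG00000054690) lies on the plus strand of chromosome 3 from 137341067 to 137432185. This sialomucin of venous and capillary endothelium was at 9.85, 9.55, 10.3 and 10.9 CPM in *Srsf10-kd* livers 1 to 4 and at 5.95, 6.13, 8.85 and 6.76 CPM in *Ctrl* livers 1 to 4. The 4 *Srsf10-kd* livers were close together and above all *Ctrl* livers, of which *Ctrl* 3 was the highest. The mean was 10.1 ± 0.600 CPM in *Srsf10-kd* and 6.92 ± 1.33 CPM in *Ctrl* (SD, n = 4 livers each). The log2 fold change was 0.55 (SE 0.14, unadjusted p = 0.00309, adjusted p = 0.119 by edgeR and 0.0176 by DESeq2). *Egfl7*, a secreted protein of the endothelial matrix, was at 18.3, 17.8, 22.9 and 19.3 CPM in *Srsf10-kd* and 14.3, 14.03, 15.8 and 13.9 CPM in *Ctrl*. These groups did not overlap either (log2 fold change 0.43, SE 0.11, adjusted p = 0.119 by edgeR and 0.0149 by DESeq2). Of its exons 9.41% lie in another gene on the same strand, so part of its count is uncertain.

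*Plvap*, which forms the diaphragms of endothelial fenestrae and caveolae, was at 51.0, 45.3, 59.1 and 46.6 CPM in *Srsf10-kd* and 40.8, 42.2, 44.3 and 39.9 CPM in *Ctrl*. The groups did not overlap, although *Srsf10-kd* 2 was only just above *Ctrl* 3 (log2 fold change 0.27, SE 0.11, adjusted p = 0.196 by edgeR). *Pecam1*, a junction adhesion molecule and the usual endothelial marker, was at 36.3, 31.0, 35.2 and 35.6 CPM in *Srsf10-kd* and 25.2, 27.8, 32.3 and 26.7 CPM in *Ctrl*. *Srsf10-kd* 2 was below *Ctrl* 3, and the other 3 *Srsf10-kd* livers were above all *Ctrl* livers (log2 fold change 0.30, SE 0.11, adjusted p = 0.169 by edgeR).

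The same arrangement, with *Srsf10-kd* 2 below *Ctrl* 3 and all other livers separated by label, was found for a pair of further genes. *Esam*, a tight junction adhesion molecule, was at 21.4, 19.0, 26.6 and 21.3 CPM in *Srsf10-kd* and 15.4, 15.7, 19.6 and 16.5 CPM in *Ctrl* (log2 fold change 0.39, SE 0.13). *Mmrn2*, a matrix protein that binds VEGF-A, was at 17.3, 16.5, 17.8 and 17.9 CPM in *Srsf10-kd* and 12.2, 14.5, 17.03 and 13.1 CPM in *Ctrl* (log2 fold change 0.29, SE 0.12). By edgeR the adjusted p was 0.154 for *Esam* and 0.203 for *Mmrn2*.

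Not every pan-endothelial gene was higher. *Cdh5*, the cadherin of endothelial junctions, was at 23.1, 20.5, 22.2 and 20.4 CPM in *Srsf10-kd* livers 1 to 4 and at 20.9, 22.2, 21.5 and 23.9 CPM in *Ctrl* livers 1 to 4. These values overlapped fully (log2 fold change -0.04, SE 0.09, adjusted p = 0.822 by edgeR). *Nos3*, the endothelial nitric oxide synthase, had a log2 fold change of 0.03, and 32.3% of its exonic bases overlap genes on the opposite strand. *Vwf* had a log2 fold change of -0.05 and ranged widely within both groups, from 4.53 to 10.2 CPM in *Srsf10-kd* and from 4.67 to 9.16 CPM in *Ctrl*. Endothelial markers in common use thus differed among themselves, with *Pecam1* at 0.30, *Tie1* at 0.16, *Cdh5* at -0.04 and the factor *Erg* at -0.19.

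The 4 transcription factors were split as well. *Sox17*, a SOX factor of arterial and other endothelium, was at 5.88, 4.61, 5.23 and 5.43 CPM in *Srsf10-kd* and 3.14, 4.04, 4.71 and 3.77 CPM in *Ctrl*. *Srsf10-kd* 2 was again just below *Ctrl* 3 (log2 fold change 0.43, SE 0.15, adjusted p = 0.166 by edgeR). Of the *Sox17* exons 16.8% overlap a gene on the opposite strand. Its relative *Sox18* had a log2 fold change of 0.29 that rested on *Srsf10-kd* 3 at 9.61 CPM, since it was 0.05 without that liver. *Gata4*, which specifies the sinusoidal fate during development, was at 9.92, 12.1, 13.5 and 11.7 CPM in *Srsf10-kd* and 14.5, 11.7, 10.5 and 13.7 CPM in *Ctrl*. The groups overlapped (log2 fold change -0.10, SE 0.14). *Erg*, the ETS factor that maintains endothelial identity, was at 4.10 to 4.76 CPM in *Srsf10-kd* and 4.64 to 5.35 CPM in *Ctrl* (log2 fold change -0.19).

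ETS factors such as ERG bind DNA around a GGAA core, and the promoters of these genes were searched for it. RefSeq windows of GRCm38.p6, from 250 bases before to 50 bases after a gene's start, were at hand for 18 of the 35 genes (22 windows). The letters AGGAAG or CGGAAG on either strand were found in 11 of the 22 windows (50%) and in 46.5% of 32851 promoters of all genes. The GATA letters AGATAA or TGATAA were in 27.3% of the windows, against 18.6% of all promoters. The SOX letters AACAAAG or AACAATG were in 9.09% of them, against 9.36% of all promoters. The stretches below, each of 30 bases, hold a match 93, 89, 58 and 40 bases before a RefSeq start and are those of *Emcn* and *Egfl7*, which were higher in *Srsf10-kd* livers, and of *Stab1* and *Stab2*, whose log2 fold changes were below 0. They are written in the direction of the gene with the ETS letters in capitals, and CTTCCT and CTTCCG are the same letters read on the opposite strand.
Emcn: agtggctgccaaAGGAAGagagaggaaaaa
Egfl7: tgggagacaaacAGGAAGgccatctctctg
Stab1: ccagcgtcttccCTTCCGcctgcaggctgc
Stab2: cacctactttccCTTCCTaaccagggaaag
The first lies at chr3:137340973-137341002 on the plus strand and the second at chr2:26580982-26581011 on the plus strand. The third lies at chr14:31168682-31168711 and the fourth at chr10:87007965-87007994, both on the minus strand. The stretches of *Egfl7* and *Stab2* precede a RefSeq start that lies inside the gene as GENCODE M21 annotates it. The same letters thus stood before genes on either side of 0.

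Of the 5 signals that endothelium sends to hepatocytes, 2 had a log2 fold change above 0 and 3 below, with a median of -0.14. *Bmp6* (ENSMUSG00000039004) lies on the plus strand of chromosome 13 from 38345107 to 38500302. *Bmp6*, the ligand through which endothelium reports iron stores to hepatocytes, was at 3.66, 3.67, 2.08 and 3.05 CPM in *Srsf10-kd* livers 1 to 4 and at 3.78, 3.88, 4.48 and 5.67 CPM in *Ctrl* livers 1 to 4. The groups did not overlap, but *Srsf10-kd* 1 and 2 were close to *Ctrl* 1 and 2 (log2 fold change -0.51, SE 0.21, unadjusted p = 0.0343, adjusted p = 0.203 by edgeR). Of its exonic bases 5.74% overlap *Txndc5* on the opposite strand. *Bmp2*, the second endothelial BMP of the liver, was at 20.9, 21.7, 18.3 and 15.2 CPM in *Srsf10-kd* and 16.7, 17.3, 16.4 and 16.4 CPM in *Ctrl*. *Ctrl* livers were within a narrow range and *Srsf10-kd* livers lay on both sides of it (log2 fold change 0.19, SE 0.12, adjusted p = 0.368 by edgeR).

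*Wnt2*, a Wnt ligand of pericentral and sinusoidal endothelium, was at 4.18, 3.84, 4.20 and 3.46 CPM in *Srsf10-kd* and 3.66, 4.99, 4.95 and 3.81 CPM in *Ctrl*. *Wnt9b*, the Wnt ligand of the central vein, was at 1.15, 0.711, 0.525 and 0.784 CPM in *Srsf10-kd* and 0.660, 0.916, 0.895 and 1.04 CPM in *Ctrl*. Both pairs of groups overlapped, with log2 fold changes of -0.15 (SE 0.15) and -0.14 (SE 0.26). *Rspo3*, the R-spondin that amplifies Wnt signals around the central vein, was at 6.36, 4.96, 8.01 and 5.83 CPM in *Srsf10-kd* and 4.83, 5.31, 5.97 and 4.88 CPM in *Ctrl*. These groups overlapped too (log2 fold change 0.26, SE 0.16, adjusted p = 0.341 by edgeR, and 0.13 without *Srsf10-kd* 3), and 13.1% of the *Rspo3* exons overlap a gene on the opposite strand.

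**Figure D3:**
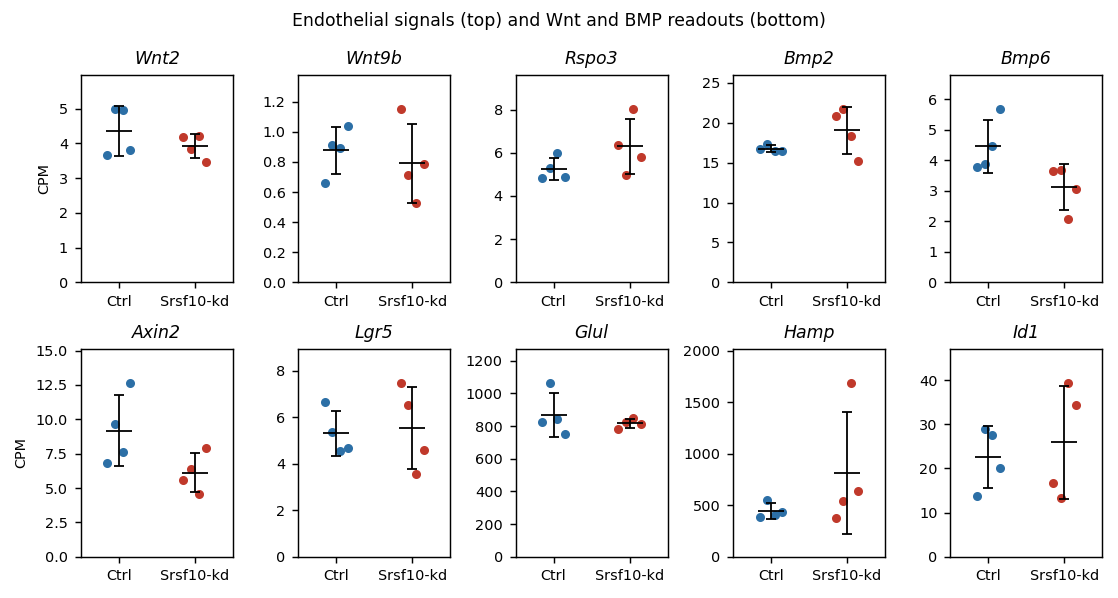
CPM of the 5 endothelial signals (top row) and of 5 genes that read Wnt and BMP signals out (bottom row), 1 point per liver with the mean and a bar of 1 SD over 4 livers, on linear axes from 0. *Bmp6* is the panel without overlap between the groups, and *Hamp* in *Srsf10-kd* is spread by 1 liver.

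Relative to endothelial transcripts of the same liver, *Bmp6* was again lower, in ratios that rest on the same *Bmp6* counts. Its log2 ratio to the mean of *Pecam1*, *Cdh5*, *Tie1* and *Erg* was -2.16, -2.03, -2.88 and -2.35 in *Srsf10-kd* livers 1 to 4 and -1.89, -1.92, -1.84 and -1.41 in *Ctrl* livers 1 to 4. The groups did not overlap and their means differed by -0.59. Against *Pecam1* alone, itself higher in *Srsf10-kd* at a log2 fold change of 0.30, the difference was -0.83, also without overlap. Against 5 sinusoidal genes it was -0.33 and the groups overlapped. For *Wnt2* the difference was -0.20 against the 4 genes, with overlap, and -0.44 against *Pecam1*, without overlap. It was 0.06 against the sinusoidal genes, so that its sign depended on which endothelial genes served as the base. *Bmp2* was 0.37 higher relative to the sinusoidal genes, without overlap, and 0.11 higher relative to *Pecam1*, *Cdh5*, *Tie1* and *Erg*, with overlap. No test was made of these ratios.

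A list of Wnt and R-spondin receptors and regulators also held genes that are no receptors, such as *Porcn* and *Wls*, which serve Wnt secretion, and *Apc* and *Ctnnb1* of the intracellular pathway. Of 16 tested genes of 19 listed, 14 had a log2 fold change below 0, and the median was -0.39. At an unadjusted p under 0.05, 7 were lower and 0 higher (43.8%, against 21.8% of all genes tested). By edgeR 0 of them passed an adjusted p of 0.05, by DESeq2 3 and by limma-voom 5. Over all genes tested these tools called 0.0710%, 5.21% and 11.7%. *Fzd4*, a Frizzled receptor, was at 6.19, 9.51, 4.75 and 7.23 CPM in *Srsf10-kd* livers 1 to 4 and at 15.7, 17.01, 14.6 and 15.3 CPM in *Ctrl* livers 1 to 4. The groups were far apart, at a log2 fold change of -1.18 (SE 0.19). The adjusted p was 0.0769 by edgeR, 8.56e-06 by DESeq2 and 0.0321 by edgeR without *Ctrl* 3. *Fzd7* and *Fzd5* had log2 fold changes of -0.42 and -0.57, without overlap between groups. These are long transcripts, and with the length trend removed the 3 Frizzled genes were at -0.95, -0.30 and -0.33 in the same order.

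Among 19 Wnt target genes of hepatocytes 13 had a log2 fold change below 0 and the median was -0.09. Their summed level was 12561 to 13910 CPM in *Srsf10-kd* and 14233 to 15573 CPM in *Ctrl* and so did not overlap. Most of this sum was *Cyp2e1*, at means of 9650 and 10916 CPM, whose own groups overlapped (log2 fold change -0.18). At an unadjusted p under 0.05, 3 were lower and 0 higher (15.8%, below the 21.8% of all genes tested). By edgeR 0 passed an adjusted p of 0.05. *Axin2*, a feedback inhibitor that most Wnt-responsive cells express, was at 5.56, 6.38, 4.59 and 7.93 CPM in *Srsf10-kd* and 6.79, 9.65, 7.62 and 12.6 CPM in *Ctrl*. The groups overlapped, with 3 of 4 *Srsf10-kd* livers below all *Ctrl* livers (log2 fold change -0.58, SE 0.22, adjusted p = 0.187 by edgeR). The glutamate transporter *Slc1a2* had a log2 fold change of -0.57 (-0.22 with the length trend removed) and the transcription factor *Tbx3* one of -0.64 (-0.33 without *Ctrl* 4). The pericentral enzyme glutamine synthetase, *Glul*, was at -0.09 and the R-spondin receptor *Lgr5* at 0.06, with overlapping groups.

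Of 15 BMP receptors and regulators, 2 were lower at an unadjusted p under 0.05, *Acvr2a* (log2 fold change -0.24) and the hemojuvelin partner *Neo1* (-0.45). With the length trend removed they were at -0.06 and -0.18. *Acvrl1*, the receptor through which endothelium senses circulating BMP, was higher (0.41). In all, 20% of this list had an unadjusted p under 0.05, against 21.8% of all genes tested. Among 8 BMP target genes 1 was higher (12.5%), the hepcidin paralogue *Hamp2*. Its level ran from 0.540 to 134 CPM within *Srsf10-kd*, and its log2 fold change of 4.11 was 1.60 without *Srsf10-kd* 2 (adjusted p = 0.160 by edgeR with all livers). *Hamp2* and *Hamp* are near-identical copies, so reads may be split between them and both values are uncertain. By edgeR 0 genes of both BMP lists passed an adjusted p of 0.05. *Hamp*, which encodes hepcidin, was at 373, 544, 1683 and 638 CPM in *Srsf10-kd* livers 1 to 4 and at 385, 550, 408 and 432 CPM in *Ctrl* livers 1 to 4. The groups overlapped, and *Srsf10-kd* 3 alone was far above the rest (log2 fold change 0.87, adjusted p = 0.240 by edgeR, and 0.22 without that liver). *Id1*, *Smad6* and *Smad7*, feedback and response genes of the pathway, had log2 fold changes of 0.20, -0.27 (-0.13 without *Ctrl* 3) and -0.07.

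Ligands for the growth factor receptors were also compared. Of 7 tested among 9 listed, 1 had an unadjusted p under 0.05 (14.3%, against 21.8% of all genes tested). It was placental growth factor *Pgf*, higher at 0.154 to 0.392 CPM in *Srsf10-kd* and 0.122 to 0.213 CPM in *Ctrl*. *Vegfa* was at 97.8 to 124 CPM in *Srsf10-kd* and 92.3 to 140 CPM in *Ctrl*, with a log2 fold change of -0.10. *Angpt1* and *Angpt2*, the angiopoietins, had log2 fold changes of -0.15 and 0.43 (0.25 without *Srsf10-kd* 3), with overlapping groups.

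Beyond the 35 genes, 49 further genes known from endothelium had a median log2 fold change of 0.11. At an unadjusted p under 0.05, 13 were higher and 6 lower (38.8%, against 21.8% of all genes tested). An adjusted p of 0.05 was passed by 0 in edgeR, 6 in DESeq2 and 14 in limma-voom (0.0710%, 5.21% and 11.7% of all genes). The flow-responsive factor *Klf2* was at 11.5, 13.7, 11.01 and 8.75 CPM in *Srsf10-kd* and 7.36, 5.77, 6.03 and 6.79 CPM in *Ctrl*. All *Srsf10-kd* livers were above all *Ctrl* livers (log2 fold change 0.79, SE 0.15, adjusted p = 0.0889 by edgeR and 0.00101 by DESeq2). Its relative *Klf4* showed the same separation, with a log2 fold change of 0.60. *Il6st*, the shared receptor subunit of interleukin 6 and its kin, which hepatocytes also express, was at 64.0 to 104 CPM in *Srsf10-kd* and 128 to 161 CPM in *Ctrl* (log2 fold change -0.68, and -0.40 with the length trend removed).

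A list of 16 genes of large vessels and lymphatics had 13 log2 fold changes above 0 and a median of 0.39. At an unadjusted p under 0.05, 9 were higher and 1 lower (62.5%, against 21.8% of all genes tested). The lymphatic chemokine *Ccl21a* was at 35.02 to 43.7 CPM in *Srsf10-kd* and 21.8 to 36.0 CPM in *Ctrl*, where *Ctrl* 3 again was the liver that overlapped (log2 fold change 0.66, and 0.38 with the length trend removed). *Edn1*, endothelin, was at 3.31 to 5.26 CPM in *Srsf10-kd* and 1.96 to 3.14 CPM in *Ctrl* (log2 fold change 0.75). The gene that was lower, *Bmp10*, which stellate cells of the liver also make, was at 0.488, 0.269, 0.0778 and 0.0891 CPM in *Srsf10-kd* and 0.712, 0.867, 1.03 and 1.19 CPM in *Ctrl* (log2 fold change -2.02). By edgeR 0 of the 16 passed an adjusted p of 0.05, by DESeq2 3 and by limma-voom 11 (0.0710%, 5.21% and 11.7% of all genes tested).

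Markers of other liver cells gave the following values beside those of the endothelium. Cholangiocyte markers were mostly higher, with 4 of 7 tested higher at an unadjusted p under 0.05 (57.1%, against 21.8% of all genes tested). Their median log2 fold change was 0.56, and summed levels were 58.1 to 77.1 CPM in *Srsf10-kd* and 44.9 to 51.8 CPM in *Ctrl*. *Krt19* led them (log2 fold change 0.73, and 0.56 with the length trend removed). Platelet and erythrocyte markers had 4 of 8 higher (50%), a median of 0.80 and sums of 297 to 804 CPM in *Srsf10-kd* and 295 to 383 CPM in *Ctrl*. The leading globin gene *Hba-a2* had a log2 fold change of 1.37 (0.89 without *Srsf10-kd* 3, and 0.89 with the length trend removed). *Gp9* and *Gp1ba*, which define platelets, were at 0 in at least 1 liver. By edgeR 0 genes of both lists passed an adjusted p of 0.05. Their median transcript lengths were 2040 and 701 bases. Length bins of all genes with medians of 1984 and 842 bases had median log2 fold changes of 0.13 and 0.39. The part of these cells in the endothelial values was not tested.

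Summed levels overlapped between the groups for 4 other lists. In the order below, 6.67%, 13.3%, 11.1% and 28.6% of their genes had an unadjusted p under 0.05, against 21.8% of all genes tested. Kupffer cell and macrophage markers were at 269 to 507 CPM in *Srsf10-kd* and 321 to 474 CPM in *Ctrl*, and of 15 genes 1 was higher (*Trem2*). Stellate cell markers were at 305 to 484 CPM and 328 to 383 CPM, and of 15 genes 1 was higher (*Tagln*, at a log2 fold change of 0.79, and 0.45 without *Srsf10-kd* 4) and 1 lower (*Rgs5*, at -0.38, and -0.25 without *Ctrl* 3). Lymphocyte markers were at 9.44 to 12.9 CPM and 11.6 to 15.2 CPM, and of 9 genes tested 1 was higher (*Cd79a*). Hepatocyte markers were at 114669 to 131854 CPM and 96706 to 123220 CPM, and of 14 genes 2 were higher and 2 lower, among them *Trf* (log2 fold change 1.07, and 0.61 without *Srsf10-kd* 3), *Apob* (-0.93, and -0.56 with the length trend removed) and *Hnf4a* (-0.50).

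**Figure D4:**
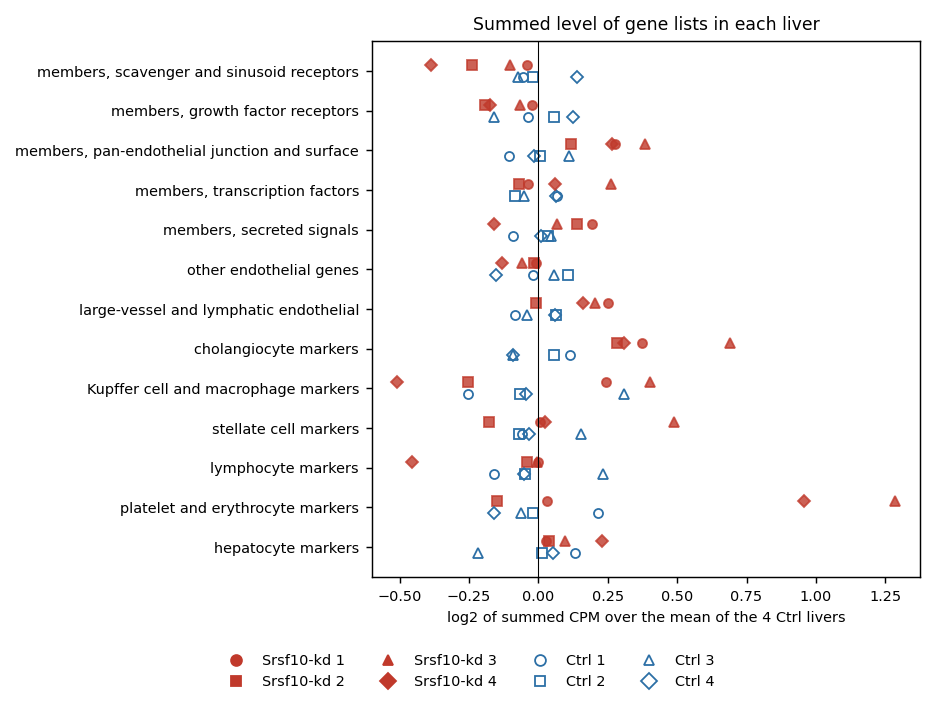
Summed CPM of each gene list in each liver, as log2 over the mean of the 4 *Ctrl* livers. The red and blue symbols separate for the pan-endothelial genes among the 35 (169 to 204 against 145 to 168 CPM) and for cholangiocyte markers (58.1 to 77.1 against 44.9 to 51.8 CPM), and 2 *Srsf10-kd* livers lie far to the right for platelet and erythrocyte markers.

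Fold changes of the 35 genes went along with transcript length, as they did over all genes. The Spearman correlation of log2 fold change with the length of the longest annotated transcript was -0.52 over the 35 genes and -0.51 over 15429 genes tested. Both are descriptions across genes, which share the same 8 libraries. Of the 7 members longer than 5000 bases, 6 had a log2 fold change below 0. The slope of log2 level on log2 length was 0.43 to 0.58 in *Srsf10-kd* livers and 0.58 to 0.74 in *Ctrl* livers, and *Ctrl* 3 had the lowest slope of its group (0.578).

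When each library's length trend was removed, 23 of the 35 genes had a log2 fold change above 0 and the median was 0.07. Of the 7 long genes 2 were then below 0, *Stab2* at -0.27 and *Stab1* at -0.09. In all 27 genes kept their sign, and the 8 that changed it were *Ptprb*, *Kdr*, *Flt4*, *Tek*, *Vwf*, *Cdh5*, *Clec4g* and *Clec1b*. Values of *Lyve1* (0.55), *Emcn* (0.59), *Ehd3* (-0.48) and *Bmp6* (-0.47) moved little. *Egfl7* (0.29), *Esam* (0.25) and *Plvap* (0.15) moved towards 0 by over 1.5 times. By edgeR 0 of the 35 passed an adjusted p of 0.05 after this step, 11 had an unadjusted p under 0.05, and 6 genes passed over the whole table (0.0389%). What gave rise to the length trend was not tested.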

How the data were processed

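Poly(A) RNA of 8 flash-frozen livers was sequenced, 1 library per liver. The authors aligned reads to GRCm38 with STAR 2.7.7a, a version given in the submitters' processing notes, and deposited whole-number counts of reads on each gene, not normalized. The annotation release and strand column are not given in the sources used here. Column names matched the sample labels, and no library was a copy of another (chi-square over degrees of freedom at least 46.5 in all 28 pairs).

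Counts were analysed in R 4.3.3 with edgeR 4.0.16 (TMM, filterByExpr, quasi-likelihood fit on condition, two-sided, Benjamini-Hochberg adjustment over 15491 genes, threshold 0.05). DESeq2 1.42.0 and limma 3.58.1 (voom) were alternatives, with other scaling, filters, a replicate block, a correction for transcript length (a lowess fit per library, span 0.5, taken out through offsets), and livers left out. A prior count of 2 was used for log2 CPM. Standard errors were derived from the edgeR test, as the absolute log2 fold change over the square root of its F statistic. Scripts were tested on simulated data. Exact permutation tests used the 70 assignments of 8 livers to groups of 4. The p-values measure the spread between these livers, since the labels name separate livers and no batch.

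Lengths, positions and overlaps came from GENCODE M21, which held 45143 of 45706 identifiers, and *Hjv* and *Tf* were looked up as *Hfe2* and *Trf*. The 35 genes and the other lists were chosen with earlier results of these data known. Values per liver are given for genes with an unadjusted p under 0.05 or without overlap, for the 5 signals and for *Stab2*, *Clec4g*, *Pecam1*, *Cdh5*, *Kdr* and *Gata4*. From each other list up to 3 genes with the smallest p under 0.05 are named, with *Axin2*, *Glul*, *Lgr5*, *Hamp*, *Id1*, *Smad6*, *Smad7*, *Vegfa*, *Angpt1* and *Angpt2*. The value of 1 cholangiocyte marker is not reported here.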

Additional observations from a re-analysis of the deposited data

Results flagged for a closer look

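In 168 groups of 4 livers, 1 liver stood far from the other 3 in 11, where chance gives about 1 in 20, or 8.4. Each is given with the gap to the nearest liver as a share of the group's range. Of the 35 genes these were *Clec4g* in *Ctrl* 3 at 60.3 CPM (0.964), *Oit3* in *Ctrl* 3 at 25.7 CPM (0.882) and *Ehd3* in *Srsf10-kd* 1 at 53.6 CPM (0.846). The log2 ratio of *Bmp6* to the mean of *Pecam1*, *Cdh5*, *Tie1* and *Erg* was highest in *Ctrl* 4 at -1.41 (0.832). *Ctrl* 3 stood apart for *Ccl21a* at 36.0 CPM (0.863), *Acvrl1* at 7.08 CPM (0.866) and *Neo1* at 10.5 CPM (0.861) as well. *Srsf10-kd* 3 did so for *Il6st* at 64.0 CPM (0.868) and *Spp1* at 44.7 CPM (0.865), and *Srsf10-kd* 2 for *Ccl21a* at 35.02 CPM (0.843) and *Hamp2* at 134 CPM (0.875). *Ctrl* 3 accounted for 5 of the 11.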

How the results depend on the processing

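By edgeR 0 of the 35 genes passed under other scaling, either other filter, the replicate block and the length correction, and the cause of the differences below was not tested. DESeq2 called 3 members of 819 genes, limma-voom 9 of 1814, and the fit without *Ctrl* 3 and *Srsf10-kd* 3 together 8 of 1342. With each liver left out in turn, 0 to 1 members and 0 to 544 genes were called. Over the whole table edgeR called 11 genes, 46 without a filter on low counts, 59 with the replicate block and 6 with the length trend removed. Groups did not overlap for 6 to 14 members (17.1% to 40.0%) with 1 liver left out, the highest without *Ctrl* 3, and for 15 (42.9%) with both livers out. Over all genes tested the groups did not overlap for 16.1% to 31.9% with 1 liver left out, again the highest without *Ctrl* 3, and for 34.9% with both out. With all livers and scaling by library size only, groups did not overlap for 9 members (25.7%, against 14.4% of all genes). With the length trend removed they did not overlap for 6 members (17.1%, against 10.9% of all genes). The median was 0.073 with the length trend removed and between -0.044 and 0.036 with 1 liver left out.

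Whether the replicate numbers pair the livers is not given in the labels. Deviations of same-numbered livers correlated at -0.18, 0.21, 0.27 and 0.22 for numbers 1 to 4, and 5 of 8 livers correlated best with their own number. Since the labels give no pairing, the main fit did not use one, and whether the livers were paired was not tested. With the block, edgeR called 0 members and 59 genes, against 11 without it.

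Signs turned mainly for genes near 0. With the length trend removed the log2 fold change was -0.17 for *Clec4g*, 0.10 for *Clec1b*, 0.038 for *Kdr*, 0.12 for *Flt4*, 0.073 for *Tek*, 0.064 for *Ptprb*, 0.046 for *Cdh5*, 0.27 for *Vwf*, -0.088 for *Id1* and 0.059 for *Smad7*. With limma-voom it was -0.017 for *Fcgr2b*, 0.018 for *Tek*, -0.027 for *Eng* and 0.057 for *Wnt9b*. Without *Ctrl* 3 and *Srsf10-kd* 3 it was -0.016 for *Fcgr2b*, -0.084 for *Flt1*, 0.017 for *Tek*, -0.063 for *Eng*, -0.072 for *Nos3* and 0.022 for *Wnt9b*. With 1 liver left out it ran from -0.044 to 0.13 for *Clec4g*, -0.32 to 0.11 for *Clec1b*, -0.068 to 0.12 for *Fcgr2b*, -0.072 to 0.14 for *Flt1*, -0.17 to 0.011 for *Tek*, -0.039 to 0.078 for *Eng*, -0.33 to 0.11 for *Vwf*, -0.034 to 0.11 for *Nos3*, -0.38 to 0.013 for *Wnt9b*, -0.12 to 0.22 for *Lgr5*, -0.16 to 0.019 for *Glul*, -0.066 to 0.42 for *Id1* and -0.28 to 0.14 for *Smad7*. The 6 members without overlap and the other 7 with an unadjusted p under 0.05 kept their sign in all alternatives except *Ptprb* with the length trend removed. Among the 35 genes depth was smallest for *Wnt9b*, read 27 to 66 times per liver, and among the other genes *Pgf* (7 to 22 reads) and *Bmp10* (4 to 68 reads) were read less.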

Other observations

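Genes outside the naming rule were looked at after their values were seen. Coagulation factor VIII, *F8*, which liver endothelium makes, was at 16.3, 12.6, 9.999 and 9.23 CPM in *Srsf10-kd* and 17.05, 20.5, 24.2 and 21.9 CPM in *Ctrl* (log2 fold change -0.79, adjusted p = 0.115 by edgeR and 0.00717 by DESeq2). Hepatocyte growth factor, *Hgf*, which endothelial and stellate cells make, was at 7.90, 5.09, 2.26 and 3.88 CPM in *Srsf10-kd* and 8.06, 11.2, 18.1 and 9.41 CPM in *Ctrl* (log2 fold change -1.29, adjusted p = 0.131 by edgeR). The mannose receptor *Mrc1*, another sinusoidal scavenger receptor that macrophages share, had a log2 fold change of -0.43. None of these 3 genes had overlapping groups, which held for 14.3% of all genes tested. For *Mrc1* the nearest livers were *Srsf10-kd* 1 at 45.88 CPM and *Ctrl* 1 at 45.97 CPM. The transcripts of *F8* and *Mrc1* are long (9784 and 5374 bases). Length bins of all genes with medians of 9526 and 5225 bases had median log2 fold changes of -0.32 and -0.18. The capillary marker *Cd34* and the lymphatic marker *Mmrn1* had log2 fold changes of 0.59 and 0.69, with groups that overlapped through *Ctrl* 3, at 7.96 and 41.7 CPM there. Both are among the 49 further endothelial genes, of which 31 had a log2 fold change above 0 and 18 below. Among the latter were *Adgrf5* (-0.33, without overlap), *Aqp1* (-0.15) and *Cd36* (-0.02). In the large-vessel and lymphatic list *Reln* was at -0.41, with overlap. *Adgrf5* and *Reln* have long transcripts (8535 and 11699 bases).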
